A study of Mus musculus with 2 samples.

Results

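The genes described here encode voltage-gated and related ion channels and their subunits. They were chosen as the protein-coding mouse genes present in both gene tables whose GENCODE symbol begins with Kcn, Hcn or Cacn, or is Scn followed by digits and a or b. The rule found 138 genes of the 43346 mouse genes and of the 21474 protein-coding ones: 94 Kcn genes, 26 Cacn genes, 14 Scn genes and 4 Hcn genes. The rule uses symbols and no measured value. The libraries form 1 group: hearts of mouse pups of strain B6NCrl at postnatal day 0, with no treatment given in the labels and 1 heart per library, from pup 1 in replicate 1 and pup 3 in replicate 2. Each library was made from 13 pg of total RNA with short RNA left out by size, given as 1 cell-equivalent, and the source is tissue, not a sorted cell. Both libraries carry 1 donor identifier, the sex was not collected, and no second condition exists, so no test between groups was made and every comparison below is a description of n = 2 libraries.

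An action potential of the heart is carried by such channels in sequence. Sodium channels open first and drive the upstroke. L-type calcium channels hold the plateau and start contraction, and several kinds of potassium channel end it and set the resting potential. Hyperpolarization-activated HCN channels drive pacemaking in the sinus node. Most pore-forming alpha subunits work with auxiliary subunits that change their gating or their transport to the membrane. The mouse heart is known for changing its set of potassium currents around birth.

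A gene was called read in a library at 1 TPM (a level per length, scaled here so that all mouse genes sum to 1000000). By that call 14 of the 138 channel genes were read in both libraries, or 10.1% with an exact 95% interval of 5.66 to 16.4%. Among all protein-coding genes the share was 28.4% (6105 of 21474). Each library alone read 20 channel genes (14.5%), against 36.0% of all protein-coding genes in replicate 1 and 37.1% in replicate 2, and 26 were read in 1 or both (18.8%, against 44.6% of all protein-coding genes). Of those 26, 12 were read in 1 library alone (46.2%), against 36.3% of the 9582 protein-coding genes read in 1 or both. The remaining 112 stayed under 1 TPM in both libraries, and 84 of them had 0 expected counts in both, which is 60.9% of the channel genes against 46.8% of all protein-coding genes. Depth was 39671930 and 32751851 expected counts on mouse genes, and the upper limit behind a zero (3 counts) was 0.0756 and 0.0916 CPM (counts scaled to a total of 1000000). These limits cover counting error only, since the labels name no molecular tag on reads. In whole tissue, fewer cells that express a gene and less RNA per cell cannot be told apart.

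**Figure D1:**
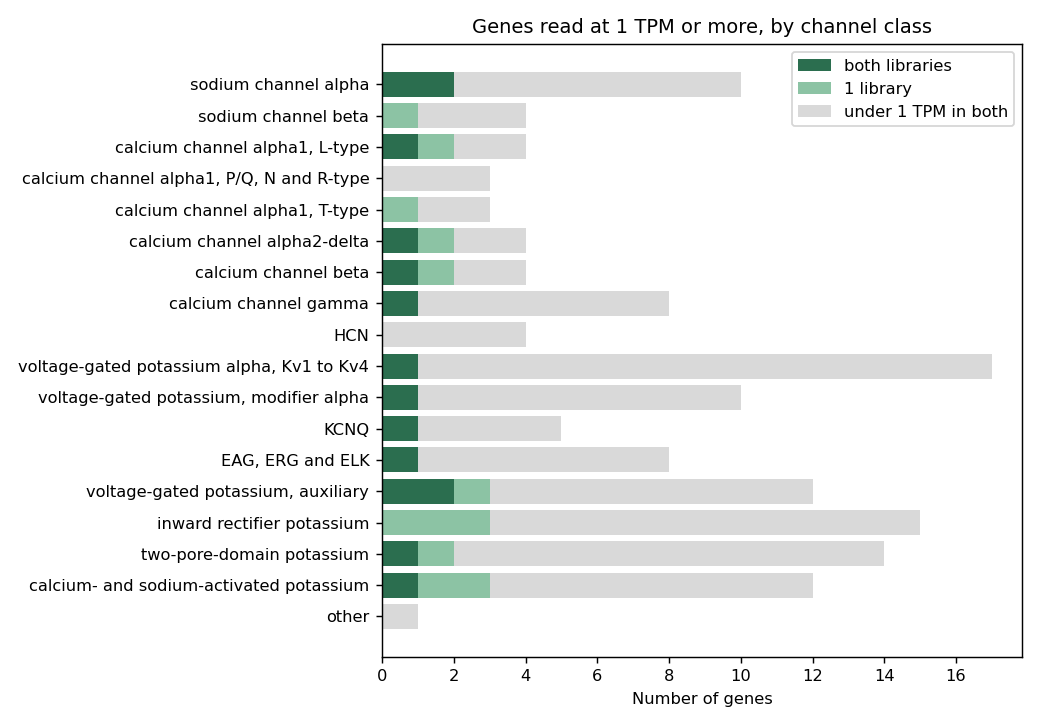
Number of channel genes in each class by whether both libraries, 1 library or neither reached 1 TPM. All 4 HCN genes and all 3 alpha1 genes of the P/Q, N and R types lie in the grey part, and the inward rectifiers have 3 genes read in 1 library and none in both.

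Of the 138 channel genes, 15 had a mean of at least 5 TPM (10.9%), against 35.9% of all protein-coding genes. Of the 10 channel genes with a mean of 5 to 20 TPM, 7 were read in both libraries (70%), against 52% of 3493 protein-coding genes in that range. With a mean of 1 to 5 TPM it was 2 of 10 (20%) against 18.9%. The median mean level was 12.3 TPM for the 14 channel genes read in both libraries and 31.1 TPM for all protein-coding genes read in both. Channel genes were also longer, with a median genomic span of 42.0 kb against 17.7 kb and a median deposited length of 3050 against 1876 nt.

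Potassium channel genes held most of the summed channel TPM, with the subunit gene Kcne1 as the highest single gene. Summed over all 138 genes, the level was 409.9 TPM for replicate 1 and 475 TPM for replicate 2 (442 ± 46.1 TPM, SD, n = 2). The potassium genes held 72.1% and 78.6% of that sum, the calcium genes 25.8% and 17.3%, and the sodium genes 2.16% and 4.17%. Kcne1 alone accounted for 161 and 234 TPM, and the other 137 genes together summed to 249 and 241 TPM.

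**Figure D2:**
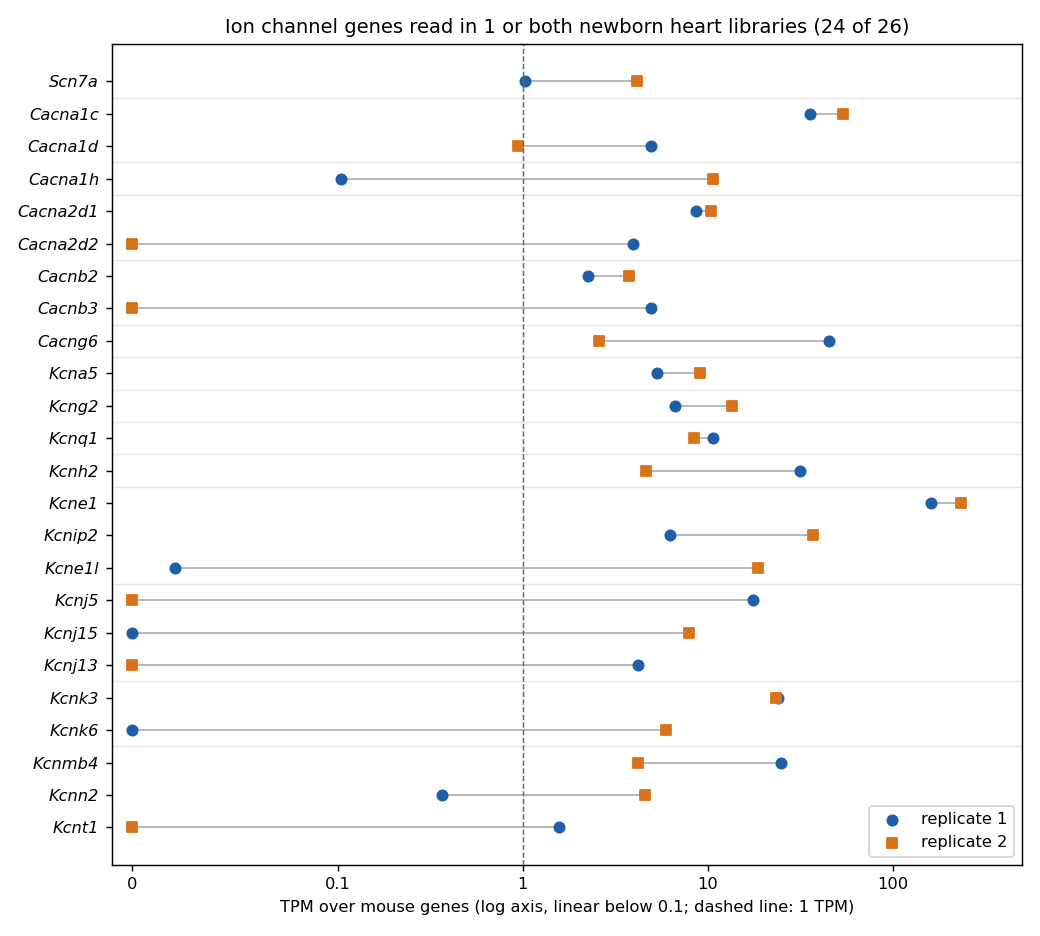
Level in TPM of 24 of the 26 channel genes read in 1 or both libraries, with replicate 1 as blue circles and replicate 2 as orange squares, grouped by class from sodium channels (top) to activated potassium channels (bottom). Cacna1c, Cacna2d1, Kcnq1, Kcne1 and Kcnk3 lie close together in both libraries, while Kcnj5, Kcnj15, Kcnj13, Kcnk6, Cacna2d2, Cacnb3 and Kcnt1 lie at 0 in 1 of them.

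The leading transcript models of Cacna1c and Kcnh2 begin at or near annotated starts, so upstream windows of annotated starts are shown first. Where transcription starts was not measured. Each is the run of 250 bases that ends 1 base before the start, from RefSeq on GRCm38.p6, minus strand, 5′ to 3′, with matches to GGGCGG on either strand in capitals. Cacna1c is known to have alternative first exons, of which the upstream one is known from the heart. Of its 3 starts in RefSeq, the far upstream and the next are shown.
Cacna1c, upstream start (chr6:119196410-119196659): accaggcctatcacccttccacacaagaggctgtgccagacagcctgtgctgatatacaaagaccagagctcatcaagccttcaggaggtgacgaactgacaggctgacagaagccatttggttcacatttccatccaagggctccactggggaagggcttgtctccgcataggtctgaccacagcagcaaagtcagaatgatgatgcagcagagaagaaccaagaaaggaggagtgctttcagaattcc
Cacna1c, next start (chr6:119108496-119108745): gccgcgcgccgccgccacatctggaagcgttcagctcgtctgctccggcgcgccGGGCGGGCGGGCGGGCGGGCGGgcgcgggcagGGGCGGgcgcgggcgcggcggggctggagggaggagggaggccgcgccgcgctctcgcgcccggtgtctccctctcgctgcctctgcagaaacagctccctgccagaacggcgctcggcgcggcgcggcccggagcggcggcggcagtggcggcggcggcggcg
Kcnh2, internal start (chr5:24329592-24329841): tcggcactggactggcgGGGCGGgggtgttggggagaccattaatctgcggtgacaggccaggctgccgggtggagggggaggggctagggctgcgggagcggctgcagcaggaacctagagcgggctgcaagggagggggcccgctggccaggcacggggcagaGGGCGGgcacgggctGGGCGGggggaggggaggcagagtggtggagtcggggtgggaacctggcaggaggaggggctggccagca
The upstream Cacna1c window held no GGGCGG and had 51.6% G and C, close to the median of 52.4% over all 32851 windows of this length in the RefSeq table. The next Cacna1c window had 82.8% G and C with 6 matches, some overlapping each other, and the Kcnh2 window had 73.6% with 3. GGGCGG was found in 32.7% of all windows. The letters TATAAA, searched on both strands, were in none of these 3 windows and in 12.4% of all. Neither was GATAA (22.6% of all) nor CATTCC (12.6% of all). A match is a run of letters, not a shown site.

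Sodium channel genes held the smallest part of the channel RNA apart from the HCN genes. Of the 10 alpha genes, 2 were read in both libraries and 5 had 0 counts in both. Scn7a, an atypical sodium channel gene, was read in both at 1.03 and 4.15 TPM, from 242 and 823 counts. The brain gene Scn2a was just under the limit in both, at 0.615 and 0.583 TPM, with 173 and 138 counts. The skeletal muscle gene Scn4a had 0 counts in both libraries. Of the 4 beta subunit genes, none was read in both libraries and 1 in replicate 2 alone.

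Over all transcript models, the L-type calcium channel gene Cacna1c had the highest level of the pore-forming genes, a rank it lost on coding models alone. Cacna1c encodes the alpha1 subunit of the main cardiac L-type channel and lies on chromosome 6 (118587240 to 119196418, minus strand, mm10). It stood at 35.4 TPM in replicate 1 and at 53.7 in replicate 2 (44.6 ± 12.9 TPM). Its relative Cacna1d, an L-type gene known from pacemaker and atrial cells, stood at 4.94 and 0.941 TPM. Cacna1c was above Cacna1d in each library, by 3.72 ± 1.56 on the log2(TPM + 1) scale. Expected counts scaled to CPM gave 2.99, and coding models alone gave 1.68, and by neither did the ratio exceed 2 SD. Cacna1s, the skeletal muscle form, and Cacna1f, known from the retina, were at 0 TPM in both libraries.

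Most of the TPM of Cacna1c was assigned to a short non-coding model. Cacna1c-218, a processed transcript of 954 nt, held 77.5% of the gene's TPM in replicate 1 and 72.2% in replicate 2, but 18.7% and 16.7% of its expected counts. The long coding model Cacna1c-207, of 13162 nt, held 79.2% and 80.2% of the counts, and 7.59 and 12.2 TPM. On coding models alone the level of Cacna1c was 7.99 and 12.2 TPM (10.1 ± 3.00 TPM), 22.5% and 22.8% of the value over all models. That mean was below those of the pore genes Kcnk3 (23.6 ± 0.37 TPM) and Kcnh2 (16.4 ± 18.1 TPM) on coding models. For Kcnh2 this held in replicate 1 only, since it stood at 3.59 TPM on coding models in replicate 2. In CPM over all models Cacna1c, at 102 and 166, was above both genes in each library. Kcnk3 stood at 72.1 and 72.5 CPM and Kcnh2 at 81.7 and 9.86 CPM. Models that begin within 500 bases of the upstream start shown above held 97.9% and 96.9% of the counts. These are 5 of the 23 listed models. The split of reads between models is an estimate, and exons downstream are shared by models with other starts.

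T-type calcium channels, which open at more negative potentials and are known from immature myocytes, were read in 1 library. Cacna1h stood at 0.104 TPM in replicate 1 and at 10.7 in replicate 2, while Cacna1g and Cacna1i had 0 counts in both. In replicate 2 the short model Cacna1h-207 of 879 nt held 60.3% of the gene's TPM but 12.8% of its counts. The long model Cacna1h-205 of 8230 nt held 87.0% of the counts and 4.19 TPM. The neuronal P/Q, N and R-type genes Cacna1a, Cacna1b and Cacna1e were at 0 TPM in both libraries.

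Each kind of auxiliary calcium channel subunit had 1 gene read in both libraries. Cacna2d1, the alpha2-delta subunit that aids transport of the pore to the membrane, stood at 8.65 TPM in replicate 1 and at 10.3 in replicate 2 (9.50 ± 1.2 TPM). In CPM, which is not divided by length, the direction was the other one, with 51.5 in replicate 1 and 33.1 in replicate 2. Its deposited effective length was 7318 nt in replicate 1 and 3821 nt in replicate 2. Its paralog Cacna2d2 stood at 3.93 TPM in replicate 1 and had 0 counts in replicate 2. The leading model of Cacna2d1 differed between the libraries, with 95.8% of its counts on Cacna2d1-202 in replicate 1 and 75.7% on the shorter Cacna2d1-204 in replicate 2. That gene, like Cacnb2 below, fell outside the rule for transcripts and was chosen after its values were seen. The models of Cacna1h and Kcnq1 were chosen in the same way.

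Cacnb2, the main beta subunit gene of the heart, was read at 2.26 and 3.76 TPM, but almost none of it lay on coding models. Their part was 0 TPM for replicate 1 and 0.194 TPM for replicate 2, and models annotated as retaining an intron or as processed transcripts took the rest. Cacnb3 stood at 4.95 TPM in replicate 1 and had 0 counts in replicate 2, and Cacnb1, the skeletal muscle beta subunit, had 0 counts in both. Among the 8 gamma genes, Cacng6 was read in both libraries, at 45.3 TPM in replicate 1 and at 2.59 in replicate 2. Cacng6 encodes a gamma subunit of the voltage-gated calcium channel family. It had the highest level of any calcium channel gene in replicate 1 and was over 2-fold lower in replicate 2, with 1935 and 133 counts.

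HCN genes were not read at all. Hcn4, the main pacemaker channel gene of the sinus node, had 0 counts in both libraries, and the 4 genes together stayed at or under 0.0104 TPM. Other markers of the pacemaker and conduction list were mixed: Isl1 and Shox2 had 0 counts in both, whereas Tbx3 stood at 5.34 and 11.6 TPM and Gja5 at 52.9 and 13.0 TPM. None of Cntn2 (0.0521 and 0 TPM), Tbx18 (0 and 0.757 TPM) and Cacna2d2 (3.93 and 0 TPM) was read in both libraries. The 8 genes of that list, 2 of them read in both libraries, summed to 62.2 TPM in replicate 1 and 25.4 TPM in replicate 2.

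The delayed rectifier potassium channels were represented by 1 gene of each of 3 families. Kcnq1, the pore of the slow delayed rectifier (chromosome 7, 143106362 to 143427042, plus strand, mm10), stood at 10.7 TPM in replicate 1 and at 8.37 in replicate 2 (9.53 ± 1.63 TPM). Its level was similar in both libraries, and all of it was assigned to the coding model Kcnq1-201. The antisense RNA Kcnq1ot1, which overlaps its exons on the other strand, had 968 and 384 counts, or 0.354 and 0.164 TPM, and strand was not stated for the counting. Of the other 4 KCNQ genes none exceeded 0.0205 TPM.

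Kcne1, the small auxiliary subunit that slows KCNQ1, was the highest of all 138 genes in both libraries. It lies on chromosome 16 (92345982 to 92359468, minus strand, mm10) and stood at 161 TPM in replicate 1 and at 234 in replicate 2 (197 ± 51.3 TPM). Per length it exceeded Kcnq1 in each library, with Kcnq1 over Kcne1 at −4.22 ± 0.60 on the log2(TPM + 1) scale. In CPM, which is not divided by length, Kcne1 differed more between the libraries, at 90.4 and 256, and its deposited effective length was 689 nt in replicate 1 and 1307 nt in replicate 2. The short model Kcne1-202 of 601 nt held 92.7% and 68.5% of its TPM, while by counts the longer Kcne1-201 of 3155 nt led in replicate 2, with 73.7%, and Kcne1-202 led in replicate 1, with 67.5%. Kcne1l, a related subunit gene on the X chromosome, had 1 count in replicate 1 and stood at 18.6 TPM in replicate 2.

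Kcnh2, the ERG channel gene of the rapid delayed rectifier (chromosome 5, 24319589 to 24351604, minus strand, mm10), was read in both libraries at unlike levels. It stood at 31.5 TPM in replicate 1 and at 4.65 in replicate 2, from 3242 and 323 counts. Kcnh2 was thus above Kcnq1 in replicate 1 and below it in replicate 2, and the pair has no common direction. In both libraries the leading model was Kcnh2-202, with 66.3% and 77.3% of the TPM and 64.4% and 94.3% of the counts. Kcnh2-202 begins at the internal start shown above, downstream of the first exon of the full-length Kcnh2-201, which took 34.1% of replicate 1's counts and 0 of replicate 2's. A shorter ERG isoform from an internal start is known from the heart. Use of that start was not tested here, since the split of reads between models is an estimate. The other 7 genes of the EAG, ERG and ELK class stayed at or under 0.133 TPM.

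Of the 17 alpha subunit genes of the Kv1 to Kv4 families, 1 was read. Kcna5, which carries an ultrarapid potassium current, stood at 5.30 TPM in replicate 1 and at 9.10 in replicate 2 (7.2 ± 2.68 TPM). Kcna4, of the slow transient current, had 0 counts in replicate 1 and 59 in replicate 2, at 0.460 TPM. Kcnd2 and Kcnd3, the pores of the fast transient outward current, had 0 or 1 count in each library. The Kv4 partner Kcnip2, a calcium-binding subunit that acts on the Kv4 pores, was by contrast read in both libraries, at 6.21 TPM in replicate 1 and at 37.0 in replicate 2. Its leading model was Kcnip2-202 in both, with 100% and 71.7% of the TPM. The silent subunit gene Kcng2, whose product alters the gating of other Kv channels, was read in both libraries at 6.65 and 13.4 TPM, while the other 9 genes of the modifier class had 0 counts in both. D330025C20Rik, which overlaps exons of Kcng2 on the other strand, had 336 and 47 counts.

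None of the 15 inward rectifier genes was read in both libraries. Kcnj5, a pore of the acetylcholine-gated current of atria and node, stood at 17.4 TPM in replicate 1, with 2477 counts, and had 0 counts in replicate 2. With the empty library set to 3 counts, its CPM was at least 682-fold higher in replicate 1. That bound covers counting error only, since the labels name no molecular tag on reads. Kcnj3, which pairs with it, had 0 counts in replicate 1 but 0.634 TPM in the other, so that neither library read both partners. Kcnj15 went the other way, with 0 counts in replicate 1 and 7.89 TPM in replicate 2.

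The classical ventricular inward rectifiers were lower still. Kcnj2, the main pore of the resting current, stood at 0.281 TPM in replicate 1 from 48 counts and at 0 in replicate 2, and Kcnj12 had 0 counts in both. For the ATP-sensitive channel, Kcnj11 stood at 0.948 TPM in replicate 1 and 0 in replicate 2, and Kcnj8, also a pericyte marker, at 0 in replicate 1 and 0.981 TPM in replicate 2. Both lie just under the limit of 1 TPM, so the call of unread rests on small differences there. The sulfonylurea receptor gene Abcc9, which supplies the other subunit of these channels, was read in both libraries at 9.49 and 17.4 TPM, and Abcc8 in replicate 2 alone (12.4 TPM, against 0.0104 TPM). Kcnj13 was read in replicate 1 at 4.18 TPM from 21.9 counts and lies across exons of Gigyf2 on the other strand, which had 1494 counts in replicate 1 but 0 in the other library.

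Kcnk3, a K2P background channel gene known as TASK-1, differed least between the libraries among the potassium genes read in both. It stood at 23.9 TPM in replicate 1 and at 23.4 in replicate 2 (23.6 ± 0.37 TPM), from 2862 and 2374 counts. Kcnk2, or TREK-1, had 0 counts in both libraries. Kcnk6 had 0 counts in replicate 1 but 5.93 TPM in the other, and the other 12 K2P genes stayed at or under 0.0205 TPM. Among channels opened by calcium or sodium, Kcnmb4, a beta subunit of the BK channel, was read in both libraries at 24.8 and 4.20 TPM. The BK pore gene Kcnma1 had 0 counts in both, as did Kcnmb1, its smooth muscle subunit. Kcnn2, a small-conductance channel gene of chromosome 18, stood at 0.365 and 4.56 TPM, and its overlapping antisense gene A330093E20Rik had 0 counts in replicate 1 and 420 in replicate 2. Kcnt1, a sodium-activated channel gene, stood at 1.57 TPM in replicate 1 with 0 counts in the other library.

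Between the libraries, 7 of the 15 channel genes averaging at least 5 TPM differed by more than 2-fold on the log2(TPM + 1) scale (46.7%), against 54.5% of 7711 protein-coding genes. Cacng6, Kcnh2, Kcnmb4 and Kcnj5 were the 4 higher in replicate 1 (26.8% of those protein-coding genes were), and Kcnip2, Kcne1l and Cacna1h were the 3 higher in replicate 2 (27.8%). Under 3 counts in 1 library were found for 2 of these 15, Kcne1l and Kcnj5, against 19.2% of those protein-coding genes. In CPM, Kcne1 (2.83-fold) and Kcng2 (2.07-fold) were over 2-fold higher in replicate 2 as well. The share over all protein-coding genes in CPM was not computed. Across the 138 genes the libraries had a Pearson correlation of 0.725 on log2(TPM + 1), against 0.801 over all protein-coding genes. Over the 25 channel genes averaging at least 1 TPM it was 0.273, against 0.523 over 9295 genes. The 2 sets were not matched by level, since 10 of the 25 averaged 1 to 5 TPM, against 1584 of the 9295. These correlations are across genes within 1 pair of libraries, and genes are not independent replicates.

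**Figure D3:**
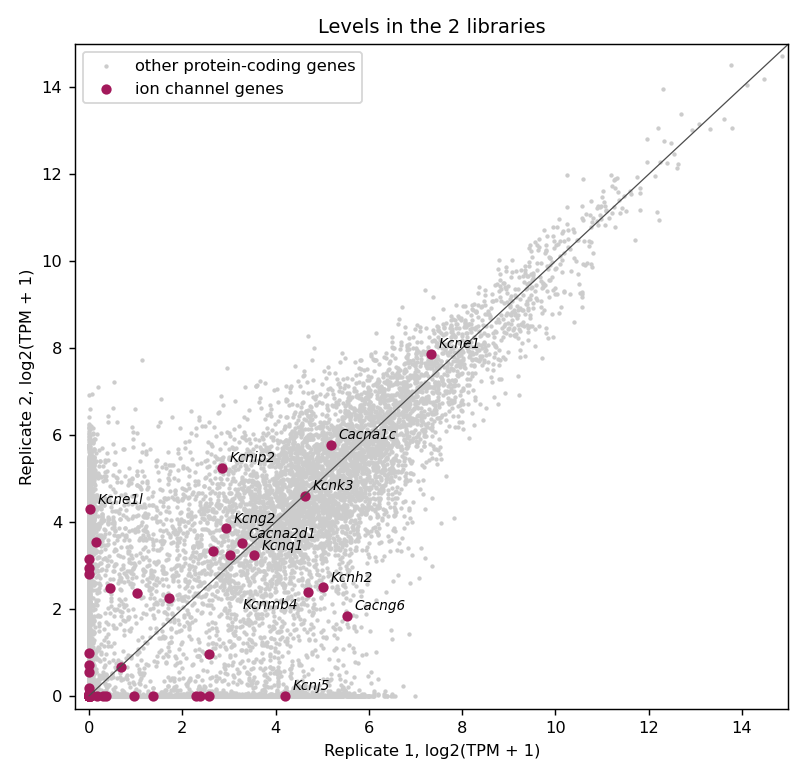
Level in replicate 1 (x axis) and replicate 2 (y axis) as log2(TPM + 1) for channel genes (magenta) and all other protein-coding genes (grey), with the line of equal levels. Kcne1, Cacna1c and Kcnk3 lie near the line, Cacng6, Kcnh2 and Kcnmb4 lie below it, and Kcnj5 and Kcne1l lie on or next to an axis.

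Of 19 pairs of related channel genes, 11 had a member with a mean of 5 TPM or more, and 7 of these kept 1 direction in both libraries with a mean log2 ratio beyond 2 SD. In 3 of the 7, such as Kcnk3 over Kcnk2, the lower gene had 0 counts in both libraries, and in Kcnip2 over Kcnd3 the lower gene had 1 count, so the size of those ratios is not given. Kcna4, below Kcna5, had 0 counts in replicate 1, so that size is not given either. The rule is a description of 2 libraries and can be met without a true difference. How often pairs of other genes meet it was not computed, so the count of kept pairs shows no trait of channel genes.

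**Figure D4:**
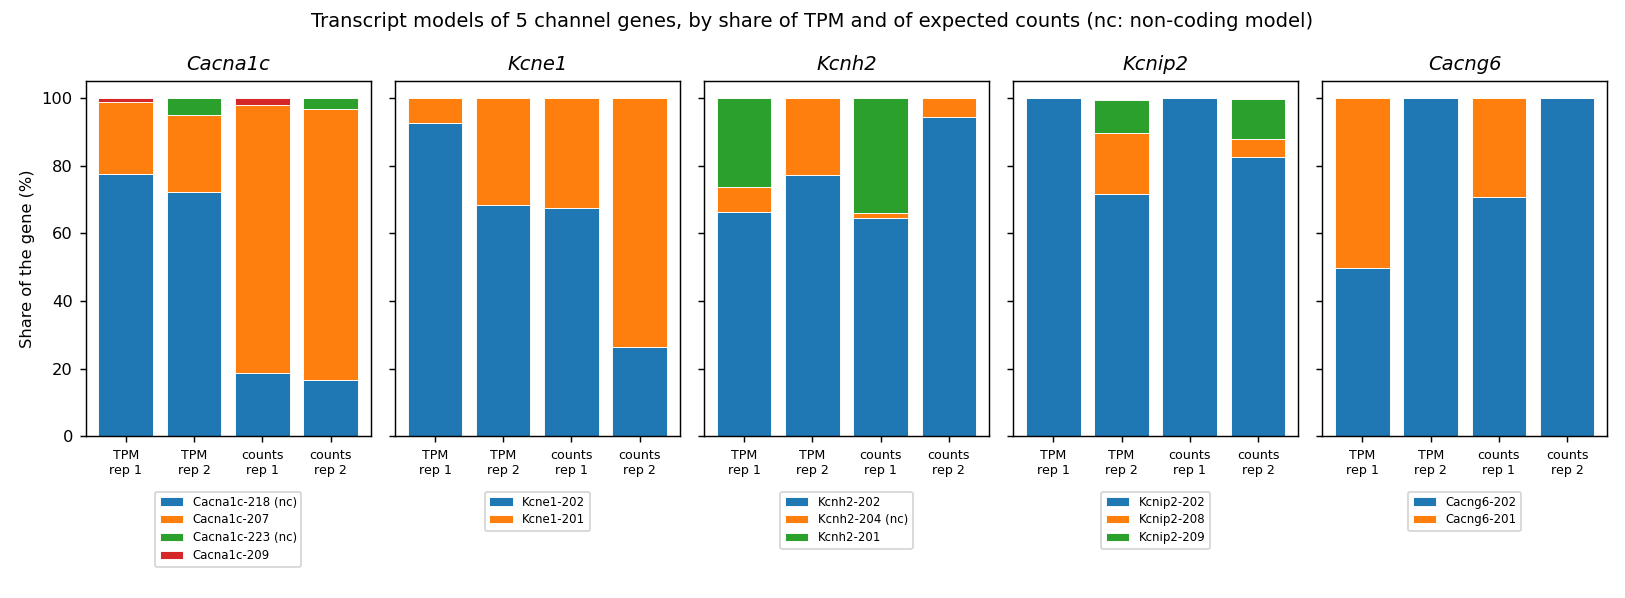
Share of each gene held by its transcript models for Cacna1c, Kcne1, Kcnh2, Kcnip2 and Cacng6, by TPM and by expected counts in each library, with non-coding models marked nc. Models with under 1% in every column are left out. For Cacna1c the non-coding Cacna1c-218 leads by TPM (77.5% and 72.2%) and the coding Cacna1c-207 leads by counts (79.2% and 80.2%).

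Transcript models were compared for the 7 channel genes averaging at least 10 TPM that have several listed models. The leading model was the same in both libraries for 6 of 7 by TPM, with Cacng6 the exception, and again for 6 of 7 by counts, with Kcne1 the exception. For Kcng2 a single model held 100% in both libraries. The same share over all protein-coding genes was not computed, so these counts show no trait of channel genes.

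Genes whose products bind or regulate channels were described beside them. The 27 such genes were listed with earlier results of these data known. Of them, 15 were read in both libraries (55.6%, against 28.4% of all protein-coding genes). Another 2 were read in replicate 1 alone, 2 in replicate 2 alone and 8 in neither. Their median level was 12.3 TPM, against 0 TPM for the 138 channel genes and 0.0156 TPM for all protein-coding genes. Since earlier results were known when the list was made, this contrast is a description only. Popdc2, a muscle membrane protein known to act with K2P channels, led at 593 and 801 TPM (697 ± 147 TPM). Cav3, the muscle caveolin, stood at 170 and 175 TPM, and Rrad, a small GTPase that restrains L-type channels, at 54.7 and 168 TPM. Fgf12, a fibroblast growth factor homolog that binds sodium channels, was read in both libraries at 25.6 and 14.6 TPM. Its relative Fgf13 stood at 127 TPM in replicate 1 and had 0 counts in replicate 2. The Kv4 partners Dpp6 and Dpp10 had at most 2 counts in any library.

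The cell types behind these values were checked by markers. All 6 cardiomyocyte genes were read in both libraries and summed to 26940 and 39232 TPM. The 6 neuronal genes summed to 1.91 and 1.02 TPM with Th at 0 counts, and the 4 Schwann cell genes to 0.0104 and 0 TPM. Skeletal muscle markers summed to 193 and 102 TPM, of which Acta1, which immature heart also uses, gave 171 and 102 TPM and Mylpf 22.1 and 0 TPM, with Myh3, Myh8, Cacna1s and Scn4a at 0 counts in both. Of the 7 smooth muscle and pericyte genes 6 were read in both (1054 and 1620 TPM in sum), and all 5 endothelial genes (1291 and 1333 TPM) and all 5 fibroblast genes (1010 and 878 TPM) were. Of the 4 macrophage markers 2 were read in both, and the list summed to 93.0 and 83.7 TPM. Lyz2 gave 81.3 and 43.3 TPM, C1qa 5.43 and 40.45 TPM and Csf1r 6.26 and 0.0102 TPM, while Cd68 had 0 counts in both. The 3 lung genes were at 0. The part of these cell types in any channel gene's level was not tested.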

How the data were processed

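RNA sequencing was carried out on 2 libraries of newborn mouse heart. The labels name mirVana extraction and a Smart-seq protocol. Per the file headers, the authors deposited 1 gene and 1 transcript table per library with expected counts (estimated reads) and TPM. The percent of a gene held by each transcript was deposited by the authors too. Notes deposited with the tables name mm10 and GENCODE M4. The aligner, the quantifier and strand use are details not given in the sources used here.

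The deposited TPM values of mouse genes were scaled to a total of 1000000. Names and positions came from GENCODE M21 on mm10, matched by identifier without version (42462 of 43346 genes). Short models with few reads receive high TPM, and reads of overlapping genes or models are divided by estimation.

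No test between groups exists. Levels are the mean ± SD of 2 libraries and intervals of shares are Clopper-Pearson (exact, 95%). Pairs were kept where the log2(TPM + 1) ratio kept its sign and averaged more than 2 SD. Named genes are those with a mean of 1 TPM or more, pair members, markers and partners, besides some unread genes that were chosen after their values were seen. Transcripts were described for genes averaging at least 10 TPM. Members, lists and pairs were chosen with earlier results of these data known. Some genes are counted in totals but not reported here by name. The calls of 2-fold differences were tested on simulated data, with changes larger than 2-fold added to genes averaging 20 TPM or more. The simulated spread was set in advance and not taken from these 2 libraries, so the error rate of the calls here was not tested. Alternatives used TMM factors (edgeR 4.0.16) and size factors (DESeq2 1.42.0) after rounding the expected counts. Python 3.11.15, pandas 2.3.3, scipy 1.17.1 and R 4.3.3 were used.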

Additional observations from a re-analysis of the deposited data

How the results depend on the processing

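The count of channel genes read in both libraries, 14, fell to 9 at a threshold of 5 TPM, a stricter limit by construction. It was 18 at 0.1 TPM, 18 at 10 or more expected counts, 14 with posterior mean TPM, TMM factors or DESeq2 size factors, and 13 with TPM as deposited, where Scn7a stood at 0.99 TPM in replicate 1. Leaving out either replicate gave 20. Coding models alone, an alternative chosen after seeing the data, gave 13, without Cacnb2, and 26.7% of all protein-coding genes. Genes over 2-fold apart numbered 7 and were 8 with a pseudocount of 0.1 and 2 above a filter of 20 TPM and 50 counts, where 5 channel genes were left, against 1664 of 4218 protein-coding genes. The summed level, 442 TPM, ranged from 410 to 475 TPM when 1 replicate was left out and was 398 TPM on coding models. Kept pairs numbered 6 to 8 in place of 7. Cacna1c over Cacna1d was the 1 pair that lost its call, in CPM and on coding models, and no pair turned its direction. No paired analysis was possible because the libraries form 1 group. Of the 10 channel genes with a mean of 1 to 5 TPM, both libraries read 2, and the cause was not tested.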

Other observations

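The share of a class's summed TPM held by its leading gene varied between classes. Kcnq1 held 99.9% and 99.8% of the KCNQ sum, Kcna5 95.3% and 94.6% of the Kv1 to Kv4 sum, and Kcng2 100% of the modifier sum in both libraries. The K2P sum was all Kcnk3 in replicate 1 and 79.7% Kcnk3 in replicate 2. Shares were lower or differed between the libraries elsewhere: Cacnb2 held 31.4% and 100% of the calcium channel beta sum, Cacna2d1 68.8% and 100% of the alpha2-delta sum, Kcnmb4 92.3% and 48.0% of the sum of the activated potassium channels, and Kcnj5 76.3% and 0% of the inward rectifier sum.

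Several channel genes had many counts in 1 library and none in the other. Cacnb3 had 411 counts against 0, Cacna2d2 371 against 0 and Kcnk6 0 against 648, as replicate 1 against replicate 2. With the empty library set to 3 counts, CPM was at least 113-fold higher for Cacnb3 and 102-fold higher for Cacna2d2 in replicate 1, and at least 262-fold higher for Kcnk6 and 432-fold higher for Kcnj15 in replicate 2. These folds cover counting error only. Each of these genes averaged 1 to 5 TPM. In that range 87% of all protein-coding genes were over 2-fold apart, against 90% of the channel genes. The shares read in both libraries there were 18.9% and 20%.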
